A study of Drosophila melanogaster with 30 samples.

Results

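Aminoacyl-tRNA synthetases are the enzymes that join each amino acid to its transfer RNAs, so that the ribosome receives the residue that a codon calls for. Animal cells run this reaction in the cytosol and, largely with a separate set of nuclear-encoded enzymes, in the mitochondrial matrix, where the charged tRNAs serve the few proteins encoded by mitochondrial DNA. Transcription of cytosolic synthetase genes is known to respond to amino acid supply and to growth signalling, of which the TOR kinase is a central component.

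The genes described here are those whose symbol is the letter code of an amino acid, or GluPro, followed by RS, with or without the suffix -m for a mitochondrial enzyme, and whose mean count was at least 10. They number 31 of the 17713 features in the count table, 17 with a cytosolic and 14 with a mitochondrial symbol. The symbols that meet the rule number 33, and the other two, *LeuRS* and *PheRS-m*, were not matched by identifier and were not analysed here. All 31 passed the filter on low counts in every comparison. Their counts ran between 73 and 6191 per library, and the least abundant member, *GluRS-m*, had a mean of 120.9 counts.

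RNA was sequenced from pools of 5 whole third-instar larvae, with 5 replicates in each of 6 groups. *TOR-RNAi* animals carried *Tub-GAL80TS*/+, *Tub-GAL4*/+ and *UAS-Tor-RNAi*/+, *HR3-RNAi* animals carried the same drivers with *UAS-Hr3-RNAi*/+, and controls carried the drivers alone. The *Tub* driver acts in all tissues and was released by moving the larvae from 18 to 29 °C, controls included. All animals spent 10 h on food with 1.2 µg/mL cholesterol and then 10 h on food with 80 µg/mL (refed) or again with 1.2 µg/mL (low cholesterol). Since controls carried no RNAi transgene, an effect of the knockdown and one of carrying a transgene or its background cannot be told apart. In pools of whole larvae, fewer cells of a type and less transcript per cell cannot be told apart either.

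Libraries held between 19744564 and 33510753 counts in total. The targeted *mTor* transcript averaged 29.8 ± 3.07 CPM (counts relative to library size after TMM scaling) in refed and 35.2 ± 7.99 CPM in low-cholesterol *TOR-RNAi* animals, against 51.5 ± 3.92 and 50.3 ± 2.84 CPM in the matching controls (SD, n = 5 each). *Hr3* had 2 to 17 counts per library and was not called lower in *HR3-RNAi* animals (log2 fold change of -0.39, edgeR adjusted p = 0.495), so the label of that genotype was not checked by its transcript. Libraries differed widely in the male dosage-compensation RNAs *roX1* and *roX2*, whose summed level ran from 3.79 to 182 CPM. Its range overlapped between all groups, and fits with *roX* as a covariate are given beside the calls of members that they change.

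The 2 classes of synthetase were expressed at separate levels. Per transcript length, on the authors' FPKM scale, the medians of the cytosolic members over the 30 libraries lay between 19.5 and 82.0 FPKM, and those of the mitochondrial members between 2.33 and 12.8 FPKM. No mitochondrial median reached the lowest cytosolic one. *SerRS*, which charges serine tRNAs, was the highest at 82.0 FPKM, ahead of *AsnRS* for asparagine at 60.0 FPKM and *ThrRS* for threonine at 57.9 FPKM. The ranges of *AsnRS*, from 46.2 to 78.8 FPKM, and *ThrRS*, from 47.3 to 68.1 FPKM, overlapped over most of their length, so these neighbours in the order were not separated by their spread. The lowest cytosolic member was *MetRS*, which also charges the initiator tRNA, at 19.5 FPKM. Among mitochondrial members, *AspRS-m* led with 12.8 FPKM and *MetRS-m* was lowest with 2.33 FPKM. Within groups, the coefficient of variation between replicates had a median of 6.86% for cytosolic and 11.3% for mitochondrial members.

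**Figure D1:**
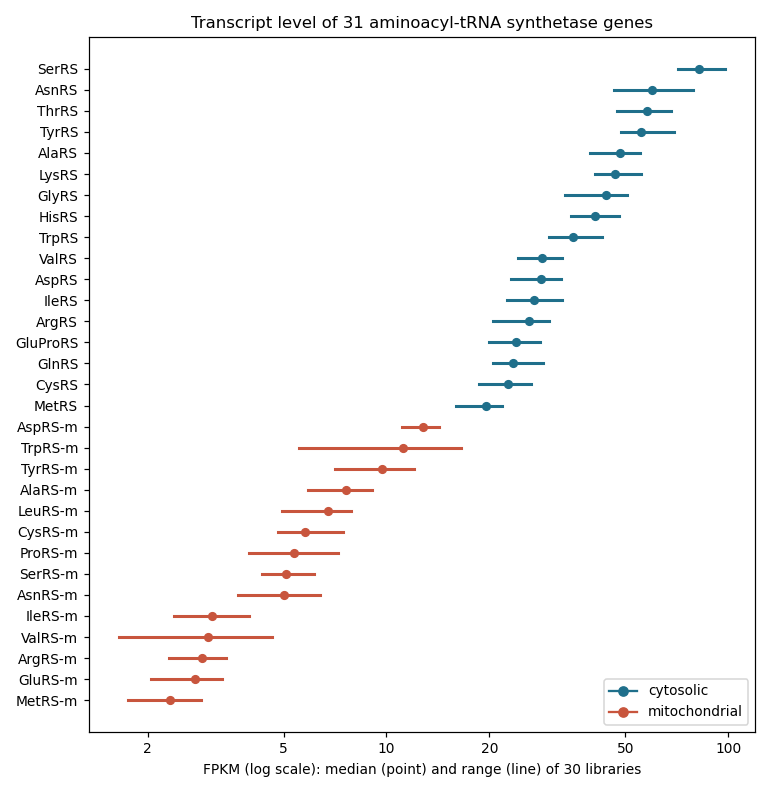
Transcript levels of the 31 synthetase genes on a log FPKM axis, with the median of 30 libraries as a point and the range as a line. Cytosolic medians lie between 19.5 and 82.0 FPKM and mitochondrial medians between 2.33 and 12.8 FPKM.

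Exons of 16 members overlap those of another gene in the BDGP6 annotation, mostly on the opposite strand. Strand-specific counting is not stated in the sources used here, so reads of such neighbours may be included. *AsnRS* (FBgn0086443, chromosome 2L from 19129469 to 19131954) overlaps no other gene. *SerRS* (FBgn0031497, chromosome 2L from 3035493 to 3037403), *AlaRS-m* (FBgn0028962, chromosome 3L from 5146098 to 5149852) and *ProRS-m* (FBgn0027082, chromosome 3L from 2650161 to 2651850) each overlap 1 gene on the other strand.

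*TOR* knockdown was compared with controls across both diets. In *TOR-RNAi* animals, 15 of the 17 cytosolic synthetase genes and 6 of the 14 mitochondrial ones fell, and no member of either class rose, at an adjusted p under 0.05 in edgeR's quasi-likelihood test. Of all 12178 genes tested, 12.2% were called lower and 8.72% higher in this comparison. The decreases were shallow. The median log2 fold change was -0.20 for the cytosolic and -0.19 for the mitochondrial members, against 0.03 over all genes tested. When single libraries among the 20 were omitted, the number of members called lay between 17 and 23, and 16 of the 21 were called every time. The genes lost in some of these fits were *GlnRS*, *LysRS*, *MetRS*, *ValRS* and *ProRS-m*. *AspRS-m* was called in each of them but not with DESeq2's size factors, with DESeq2's Wald test or in a fit of the 20 libraries of these genotypes alone.

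*AsnRS* showed the largest decrease. Refed *TOR-RNAi* animals had 114, 122, 106, 121 and 117 CPM, against 171, 187, 175, 175 and 167 CPM in refed controls. On low cholesterol, *TOR-RNAi* animals had 127, 127, 146, 117 and 144 CPM, against 144, 172, 180, 154 and 143 CPM in controls. The refed groups did not overlap, whereas on low cholesterol 2 *TOR-RNAi* libraries reached the level of the lowest controls. Its log2 fold change over both diets was -0.43 (standard error 0.046, edgeR adjusted p = 1.56e-07), a level 25.7% lower. It stayed between -0.45 and -0.41 with each library left out.

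*AlaRS-m*, the mitochondrial enzyme for alanine, had the largest decrease of its class. It was at 20.1, 19.7, 20.4, 21.1 and 19.9 CPM in refed *TOR-RNAi* animals, against 24.2, 25.0, 27.2, 23.6 and 29.7 CPM in refed controls. On low cholesterol, the *TOR-RNAi* libraries held 20.2, 19.1, 21.2, 20.4 and 25.6 CPM, against 23.7, 25.0, 26.0, 26.6 and 25.2 CPM in controls. The refed *TOR-RNAi* libraries were almost level with one another and all below the controls, and on low cholesterol 1 library reached the control range. Its log2 fold change across both diets was -0.30 (standard error 0.050, edgeR adjusted p = 7.91e-05).

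Glutamate and proline are charged in the cytosol by the single bifunctional protein GluProRS and in mitochondria by separate enzymes, and all 3 transcripts fell in *TOR-RNAi* animals. *GluProRS* had a log2 fold change of -0.23 (edgeR adjusted p = 0.00384). *GluRS-m* lay at 4.00, 4.14, 3.82, 4.83 and 3.84 CPM in refed *TOR-RNAi* animals, against 5.16, 5.61, 5.75, 4.49 and 5.09 CPM in refed controls. On low cholesterol it was at 4.19, 3.37, 3.81, 3.91 and 4.66 CPM in *TOR-RNAi* animals, against 4.08, 4.64, 5.53, 5.29 and 4.07 CPM in controls. These groups overlapped on both diets, and the log2 fold change was -0.29 (standard error 0.083, edgeR adjusted p = 0.0127). *ProRS-m* had 8.36, 7.31, 6.30, 8.88 and 6.13 CPM in refed *TOR-RNAi* animals, against 10.5, 8.92, 11.2, 8.49 and 8.24 CPM in refed controls. Its low-cholesterol libraries held 6.88, 8.99, 8.55, 6.45 and 8.87 CPM in *TOR-RNAi* animals, against 7.38, 9.71, 9.30, 10.5 and 8.99 CPM in controls. The ranges of *ProRS-m* overlapped on both diets. Its log2 fold change of -0.28 (standard error 0.089, edgeR adjusted p = 0.0238) was no longer called without replicate 4 of the low-cholesterol controls (edgeR adjusted p = 0.0504).

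The remaining called members had log2 fold changes between -0.26 for *GlyRS* and -0.11 for *AspRS-m*. *GlyRS*, a gene that in animals supplies both cytosol and mitochondria, *ThrRS* (-0.25), *SerRS* (-0.22), *ArgRS* (-0.21), *TrpRS* (-0.21) and *HisRS* (-0.21) lay within a narrow band. The smallest called cytosolic decrease was that of *GlnRS* at -0.13 (edgeR adjusted p = 0.0427). The exceptions in the cytosolic class were *AspRS*, at -0.08 (edgeR adjusted p = 0.319), and *TyrRS*, at 0.04 (edgeR adjusted p = 0.594). *TyrRS*, the enzyme for tyrosine, had 93.2 to 112 CPM in refed *TOR-RNAi* animals and 96.0 to 106 CPM in refed controls, and the first range contains the second. Of the 8 mitochondrial members not called, *CysRS-m*, *TrpRS-m*, *ValRS-m* and *SerRS-m* had log2 values between -0.00 and 0.10, and *MetRS-m*, *AsnRS-m*, *ArgRS-m* and *IleRS-m* had values between -0.20 and -0.13.

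**Figure D2:**
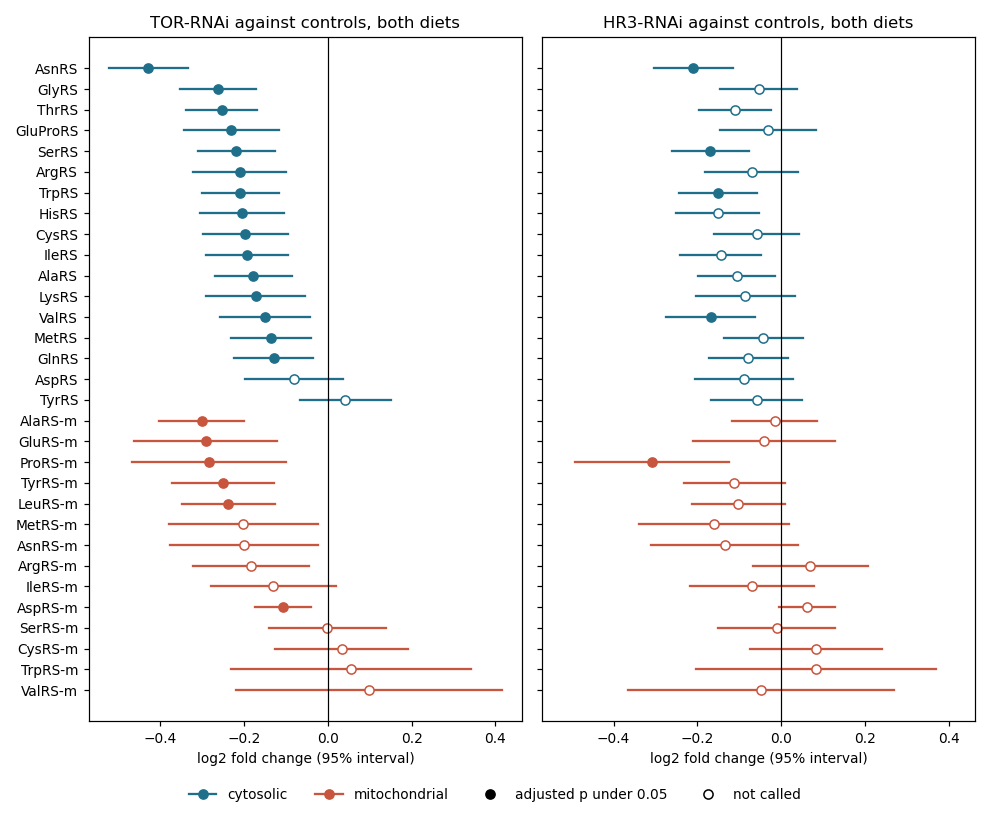
Log2 fold changes of all 31 members in *TOR-RNAi* (left) and *HR3-RNAi* animals (right) against controls across both diets, with 95% intervals. Filled points are called at an adjusted p under 0.05, which holds for 21 members in *TOR-RNAi* and 5 in *HR3-RNAi* animals, all below 0.

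Separated by diet, the difference from controls was called mostly in refed animals. After refeeding, 13 cytosolic and 5 mitochondrial members were lower in *TOR-RNAi* animals than in controls, where 9.79% of all genes tested were lower. The medians were -0.28 and -0.26, against 0.06 over all genes, and *AsnRS* reached -0.59 (95% interval from -0.73 to -0.46), a level 33.7% lower. *ProRS-m* and *GluRS-m* were close to the threshold here (edgeR adjusted p = 0.0492 and 0.0453). Leaving out 1 library gave 15 to 23 calls, and 14 of the 18 members were called every time, 11 cytosolic and 3 mitochondrial. *GlnRS*, *LysRS*, *ProRS-m* and *GluRS-m* were each lost in some of these fits. *ProRS-m* and *GluRS-m* were also lost without the filter on low counts, under a replicate block and in a fit of the 10 refed libraries of these genotypes alone. On low cholesterol, only *AsnRS* (-0.26, edgeR adjusted p = 0.0183) and *AlaRS-m* (-0.25, edgeR adjusted p = 0.0427) were called, where 1.84% of all genes were lower. Neither was called in a fit of the 10 low-cholesterol libraries of these genotypes alone, and neither was called in every fit that left out 1 library. The low-cholesterol medians were -0.11 for the cytosolic and -0.12 for the mitochondrial class.

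The separation of single libraries showed the same split by diet. All 5 refed *TOR-RNAi* libraries lay below all 5 refed controls for 10 of the 17 cytosolic members, namely *AlaRS*, *AsnRS*, *CysRS*, *GluProRS*, *GlyRS*, *HisRS*, *IleRS*, *SerRS*, *ThrRS* and *TrpRS*. Among mitochondrial members this held for *AlaRS-m*, *LeuRS-m* and *TyrRS-m*, 3 of 14. The share among all genes tested was 5.83%. On low cholesterol no member of either class met this criterion, which 2.12% of all genes did. Summed over the cytosolic members, refed *TOR-RNAi* libraries held 1460 to 1703 CPM, against 1880 to 2020 CPM in refed controls. On low cholesterol the sums were 1525 to 1829 CPM in *TOR-RNAi* animals and 1681 to 1941 CPM in controls, which overlapped. The 2 low-cholesterol controls with the lowest sums, 1681 and 1700 CPM, were also those with the highest *roX* levels of their group, at 182 and 164 CPM, and the part of *roX* in this was not tested. With *roX* as a covariate, the median cytosolic difference was -0.24 in refed and -0.14 in low-cholesterol animals, and 22 members were called across both diets, *ArgRS-m* being added, while calls over all genes numbered 3463 in place of 2548. After refeeding alone that fit called 19 members, without *GluRS-m* and with *MetRS* and *AspRS-m*, and 2533 of all genes in place of 2158.

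Whether the decrease depended on diet was tested as an interaction. No member passed, and neither did any of the 12178 genes (a background of 0%), while 5 members and 1111 genes had an unadjusted p under 0.05. With *roX* in the fit, 20 genes passed, none of them a member. The contrast was below 0 for all 17 cytosolic and 12 of 14 mitochondrial members, against 40.4% of all genes. *AsnRS* had the lowest value, -0.33 (95% interval from -0.52 to -0.14, unadjusted p = 0.00137, edgeR adjusted p = 0.256). DESeq2's Wald test called this 1 member (DESeq2 adjusted p = 0.0121, among 114 genes), and all other alternatives left it at an edgeR adjusted p between 0.0539 and 0.525. All 31 contrasts rest on the same 20 libraries.

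**Figure D3:**
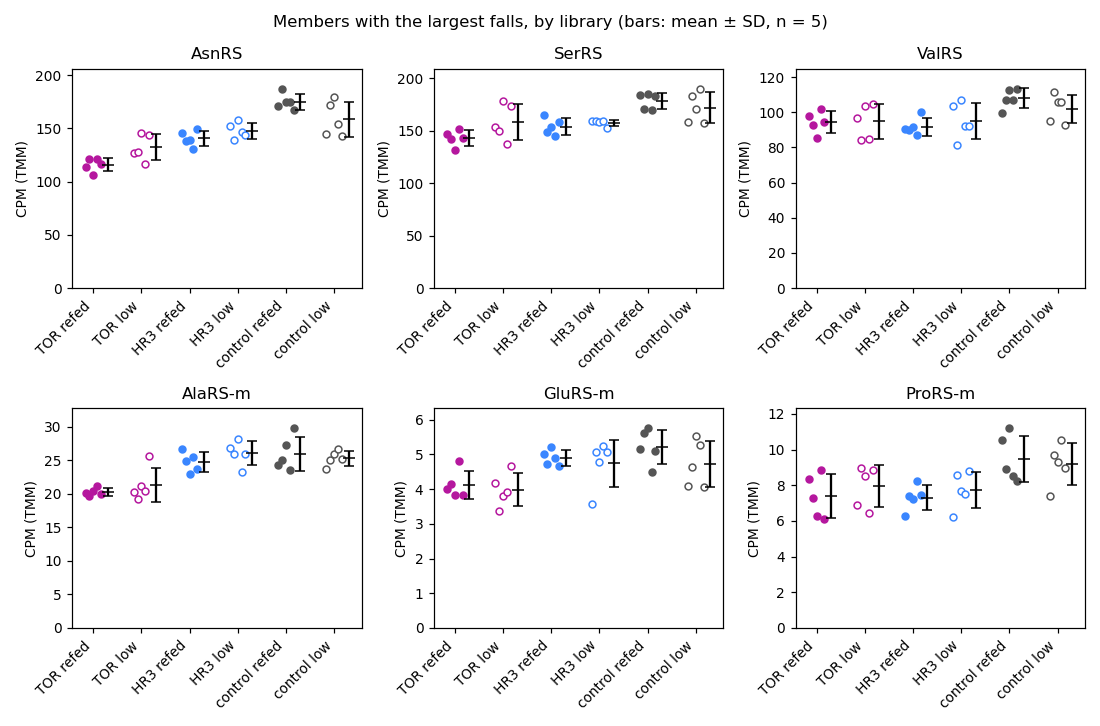
Levels of 6 members in each library in CPM (TMM-scaled), with filled points for refed and open points for low-cholesterol animals and bars for the mean and SD of 5 replicates. Refed *TOR-RNAi* animals lie at 106 to 122 CPM for *AsnRS*, below 167 to 187 CPM in refed controls, while the *GluRS-m* and *ProRS-m* groups overlap.

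*HR3* knockdown was compared with the same controls. In *HR3-RNAi* animals, 4 cytosolic members (*AsnRS*, *SerRS*, *ValRS* and *TrpRS*) and 1 mitochondrial member (*ProRS-m*) were lower across both diets and none was higher, where 4.23% of all genes were lower and 3.3% higher. All 17 cytosolic members had a log2 fold change below 0, with a median of -0.09, and the mitochondrial median was -0.04, against 0.03 over all genes tested. The share of cytosolic genes called rested on small margins. *HisRS* (edgeR adjusted p = 0.0518) and *IleRS* (edgeR adjusted p = 0.0603) fell just short, and the number of members called ran from 3 to 8 with single libraries left out. Only *AsnRS* and *SerRS* were called in all 20 of these fits.

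*AsnRS* had 145, 138, 139, 131 and 149 CPM in refed *HR3-RNAi* animals, against 167 to 187 CPM in the refed controls given above, without overlap. On low cholesterol it had 152, 139, 158, 147 and 144 CPM in *HR3-RNAi* animals, overlapping the 143 to 180 CPM of controls. Over both diets the level of *AsnRS* differed by -0.21 on the log2 scale (standard error 0.046, edgeR adjusted p = 0.00378). *SerRS* had 165, 149, 154, 145 and 158 CPM in refed *HR3-RNAi* animals, against 184, 171, 185, 170 and 184 CPM in refed controls. Its low-cholesterol libraries held 159, 159, 159, 159 and 153 CPM in *HR3-RNAi* animals, against 159, 183, 170, 190 and 158 CPM in controls. The refed groups were separate and the low-cholesterol groups overlapped, with a log2 fold change of -0.17 (standard error 0.044, edgeR adjusted p = 0.0163).

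*ProRS-m* gave the largest fold change in *HR3-RNAi* animals. It was at 6.30, 7.37, 7.23, 8.21 and 7.45 CPM in refed *HR3-RNAi* animals, just below the 8.24 CPM of the lowest refed control. On low cholesterol it was at 6.24, 8.56, 7.68, 7.50 and 8.80 CPM in *HR3-RNAi* animals, overlapping the 7.38 to 10.5 CPM of controls. Its log2 fold change was -0.31 (standard error 0.089, edgeR adjusted p = 0.0315), and it lost the call without replicate 1 of the refed controls, replicate 4 of the low-cholesterol controls or replicate 1 of the refed *HR3-RNAi* group (edgeR adjusted p up to 0.0647). *ValRS* lay at 90.4, 89.7, 91.6, 86.9 and 99.9 CPM in refed *HR3-RNAi* animals, against 99.5, 107, 113, 107 and 114 CPM in refed controls. On low cholesterol it was at 104, 81.4, 107, 92.0 and 92.1 CPM in *HR3-RNAi* animals, against 95.05, 111, 106, 106 and 92.5 CPM in controls. The refed groups overlapped by 1 library and the low-cholesterol groups over most of their range, with a log2 fold change of -0.17 (standard error 0.052, edgeR adjusted p = 0.0452). That call was lost in 4 of 20 fits with 1 library left out, with *roX* in the fit (edgeR adjusted p = 0.0626) and under a replicate block (edgeR adjusted p = 0.0545).

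After refeeding alone, *AsnRS* (-0.32, edgeR adjusted p = 0.00342) and *IleRS* (-0.24, edgeR adjusted p = 0.034) were lower in *HR3-RNAi* animals, where 2.57% of all genes were lower. *IleRS*, the isoleucine enzyme, lost its call in 6 of 10 fits with 1 library left out, and a fit of the 10 refed libraries alone called 11 members, with 1263 calls over all genes in place of 484. The refed *HR3-RNAi* libraries lay wholly below the refed controls for *AsnRS*, *GlyRS*, *SerRS*, *ThrRS*, *TrpRS* and *ProRS-m*, 6 of 31 members, where 4.84% of all genes did so. On low cholesterol no member lay wholly below the controls, where 1.72% of all genes did. *AspRS-m*, named after its values were seen, lay wholly above them, at 59.1 to 63.6 CPM in *HR3-RNAi* animals and 55.7 to 56.8 CPM in controls, where 2.04% of all genes lay above (log2 fold change of 0.10, edgeR adjusted p = 0.347). No member was called on low cholesterol in *HR3-RNAi* animals by edgeR's quasi-likelihood test or by DESeq2. EdgeR's test called 2.61% of all genes there in either direction. Without adjustment, 2 of 31 members and 1526 of 12178 genes had a p under 0.05 in edgeR's test. No member passed the interaction of *HR3* knockdown with diet in either tool, and edgeR's test called 0% of all genes. In that test, 2 of 31 members and 818 of 12178 genes had an unadjusted p under 0.05.

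The knockdowns were also tested against each other. Across both diets, *AsnRS* (-0.22, edgeR adjusted p = 0.00157), *GlyRS* (-0.21), *GluProRS* (-0.20) and *ThrRS* (-0.14) were lower in *TOR-RNAi* than in *HR3-RNAi* animals, as were the mitochondrial *AlaRS-m* (-0.29, edgeR adjusted p = 0.000158), *ArgRS-m* (-0.25) and *AspRS-m* (-0.17). These are 7 of 31 members, where 5.42% of all genes were lower in *TOR-RNAi* animals. *SerRS* (-0.05, 95% interval from -0.14 to 0.04), *ValRS* (0.02, from -0.09 to 0.13) and *ProRS-m* (0.03, from -0.16 to 0.21) were not called between the knockdowns. Leaving out single libraries gave 5 to 8 calls. *AsnRS*, *GlyRS*, *AlaRS-m*, *ArgRS-m* and *AspRS-m* were called every time, whereas *GluProRS* and *ThrRS* each lost the call in several of these fits. With *roX* in the fit 10 members were called, 9 lower and 1 higher, with *CysRS*, *GluRS-m* and *ValRS-m* added, and calls over all genes numbered 1589 in place of 1287.

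Refeeding with cholesterol for 10 h was compared with low cholesterol within each genotype. No member was called by edgeR's quasi-likelihood test in *TOR-RNAi* animals, *HR3-RNAi* animals or controls, where 0.562%, 3.44% and 3.83% of all genes were called, and none was called by DESeq2. Without adjustment, 2 of 31 members and 952 of 11569 genes had a p under 0.05 in *TOR-RNAi* animals. The numbers were 1 member and 1695 of 11615 genes in *HR3-RNAi* animals, and 1 member and 1694 of 11374 genes in controls. The fitted values nevertheless lay to different sides of 0. In *TOR-RNAi* animals, 16 of 17 cytosolic and 11 of 14 mitochondrial members had a log2 value below 0, with medians of -0.08 and -0.12. In *HR3-RNAi* animals, 13 of 17 and 13 of 14 lay below 0, with medians of -0.04 and -0.08. In controls, all 17 cytosolic and 11 of 14 mitochondrial members lay above 0, with medians of 0.10 and 0.05. The medians over all genes tested were 0.00 in each genotype. With *roX* in the fit, the control medians were 0.05 and 0.01. All members were measured in the same libraries, so these counts of signs are a description and carry no test.

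**Figure D4:**
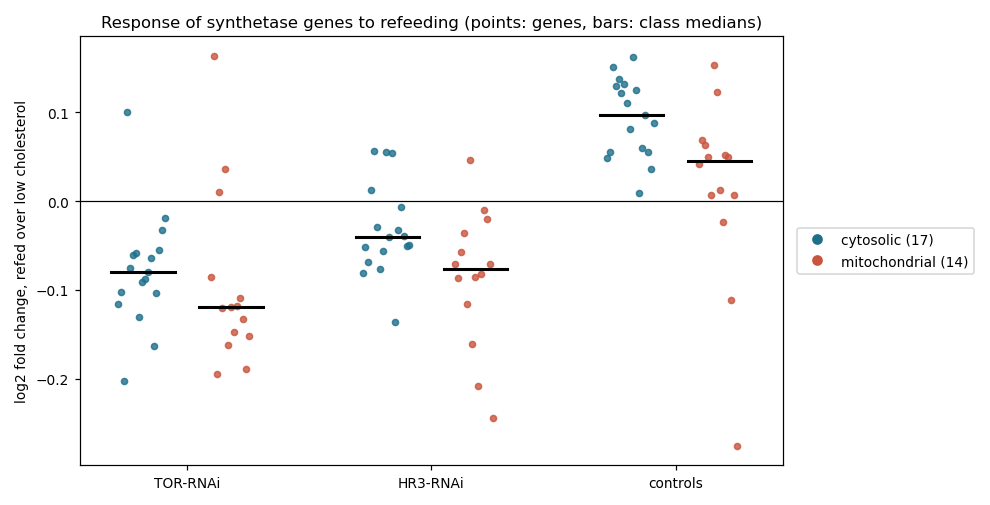
Log2 fold change of each member in refed over low-cholesterol animals of each genotype, with a bar at the median of each class. Cytosolic medians are -0.08 in *TOR-RNAi* animals, -0.04 in *HR3-RNAi* animals and 0.10 in controls, and no single gene is called.

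In *TOR-RNAi* animals the smallest p-values of refeeding belonged to *AsnRS*, whose values are given above (log2 fold change of -0.20, standard error 0.073, edgeR adjusted p = 0.434), and to the mitochondrial tyrosine enzyme *TyrRS-m*. *TyrRS-m* had 12.3, 11.2, 12.5, 14.5 and 13.7 CPM in refed and 14.7, 14.7, 14.5, 13.5 and 14.97 CPM in low-cholesterol *TOR-RNAi* animals (log2 fold change of -0.19, edgeR adjusted p = 0.570). These ranges overlapped.

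In *HR3-RNAi* animals, *MetRS* had 63.5, 65.9, 64.5, 60.5 and 67.7 CPM after refeeding, against 70.0, 66.3, 75.2, 72.9 and 70.5 CPM on low cholesterol (log2 fold change of -0.14, standard error 0.049, edgeR adjusted p = 0.194). Its mitochondrial partner *MetRS-m* had 8.58, 10.5, 9.18, 8.999 and 8.12 CPM after refeeding, against 8.49, 12.1, 10.6, 10.9 and 10.4 CPM on low cholesterol (log2 fold change of -0.21, edgeR adjusted p = 0.413). Both pairs of groups overlapped.

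In controls, *IleRS* had 109, 127, 119, 115 and 126 CPM after refeeding, against 106, 103, 117, 114 and 96.6 CPM on low cholesterol (log2 fold change of 0.16, standard error 0.070, edgeR adjusted p = 0.311). *GluProRS* had 134, 146, 155, 150 and 148 CPM after refeeding, against 126, 145, 139, 139 and 123 CPM on low cholesterol (log2 fold change of 0.13, standard error 0.060, edgeR adjusted p = 0.340). The groups of both genes overlapped.

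The cytosolic and mitochondrial enzymes for one amino acid were compared directly. For each of 13 pairs, the log2 ratio of the cytosolic to the mitochondrial transcript was formed within each library, where scaling to library size cancels, and was compared with controls by an exact permutation test that exchanged genotypes within each diet. This test was chosen after the values had been seen, and p-values were adjusted over the 26 comparisons. In *TOR-RNAi* animals, the *SerRS*/*SerRS-m* ratio was 0.21 lower on the log2 scale, at 3.51 ± 0.10 in *TOR-RNAi* animals and 3.72 ± 0.11 in controls (SD, n = 10 each, exact permutation test, adjusted p = 0.00737). *SerRS* fell and *SerRS-m*, at 10.7 to 15.8 CPM in *TOR-RNAi* animals and 11.6 to 14.6 CPM in controls, had a log2 fold change of -0.00 (edgeR adjusted p = 0.991). The *TyrRS*/*TyrRS-m* ratio moved the other way and was 0.29 higher, at 2.91 ± 0.20 in *TOR-RNAi* animals and 2.62 ± 0.10 in controls (exact permutation test, adjusted p = 0.0086). There the mitochondrial transcript fell (-0.25, edgeR adjusted p = 0.00317) while *TyrRS* was at 0.04.

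The *AsnRS*/*AsnRS-m* ratio was 0.22 lower and the *AlaRS*/*AlaRS-m* ratio 0.12 higher in *TOR-RNAi* animals than in controls (exact permutation test, adjusted p = 0.0436 for both). In *HR3-RNAi* animals, the *SerRS*/*SerRS-m* ratio was 0.16 lower than in controls (exact permutation test, adjusted p = 0.0221). The *GluProRS*/*ProRS-m* ratio was 0.27 higher in *HR3-RNAi* animals, and the *AlaRS*, *ArgRS* and *AspRS* ratios were between 0.15 and 0.09 lower (exact permutation test, adjusted p between 0.0436 and 0.0457). The remaining pairs, 9 in *TOR-RNAi* and 8 in *HR3-RNAi* animals, did not pass. In *TOR-RNAi* animals these include the *ArgRS*, *CysRS*, *IleRS*, *MetRS*, *TrpRS* and *ValRS* pairs, in which the cytosolic gene alone had been called, and the *AspRS* pair, in which *AspRS-m* alone had been called. In *TOR-RNAi* animals, a difference between partners was therefore detected for 4 of 13 pairs, in both directions. Summed over the members, cytosolic transcripts were 7.70 ± 0.48 times the mitochondrial ones in refed *TOR-RNAi* animals and 8.35 ± 0.39 times in refed controls (SD, n = 5 each), ranges that overlapped.

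In low-cholesterol *TOR-RNAi* animals, the mitochondrial members *TrpRS-m* and *ValRS-m* had coefficients of variation of 36.6% and 34.3%. The next highest member there, *MetRS-m*, had 16.4%. In the other groups the gap was smaller, and in low-cholesterol controls *ValRS-m*, at 13.6%, varied less than *GluRS-m*, at 14.2%. The levels of *TrpRS-m* and *ValRS-m* rose with *roX*. *TrpRS-m* had 23.2, 23.2, 27.6, 36.1 and 23.8 CPM in refed and 13.7, 39.5, 23.9, 37.8 and 30.3 CPM in low-cholesterol *TOR-RNAi* animals, against 25.7, 20.9, 25.4, 31.4 and 25.8 CPM in refed controls. The *TOR-RNAi* libraries at 13.7 and 39.5 CPM were those with the lowest and the highest *roX* level of their group, 3.79 and 172 CPM. In a fit of all genes with the group means and *roX*, chosen after the values had been seen, each doubling of *roX* went with a log2 rise of 0.25 in *TrpRS-m* (standard error 0.026, edgeR adjusted p = 5.01e-08). For *ValRS-m* the rise was 0.27 (standard error 0.031, edgeR adjusted p = 1.21e-07). Slopes were called upward for 4 of 31 members and downward for 3, where 19.8% and 13.6% of all genes were called. The other slopes called were smaller, upward for *MetRS* (0.05) and *AspRS-m* (0.04) and downward for *AspRS* (-0.07), *TyrRS* (-0.07) and *HisRS* (-0.05). The cytosolic partner *TrpRS* had a slope of -0.01 (edgeR adjusted p = 0.715). The sum of 7 larval testis markers also ranged widely, from 0.115 to 483 CPM in low-cholesterol *TOR-RNAi* animals and from 61.5 to 388 CPM in low-cholesterol controls. The part of male or testis tissue in these genes was not tested.

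**Figure D5:**
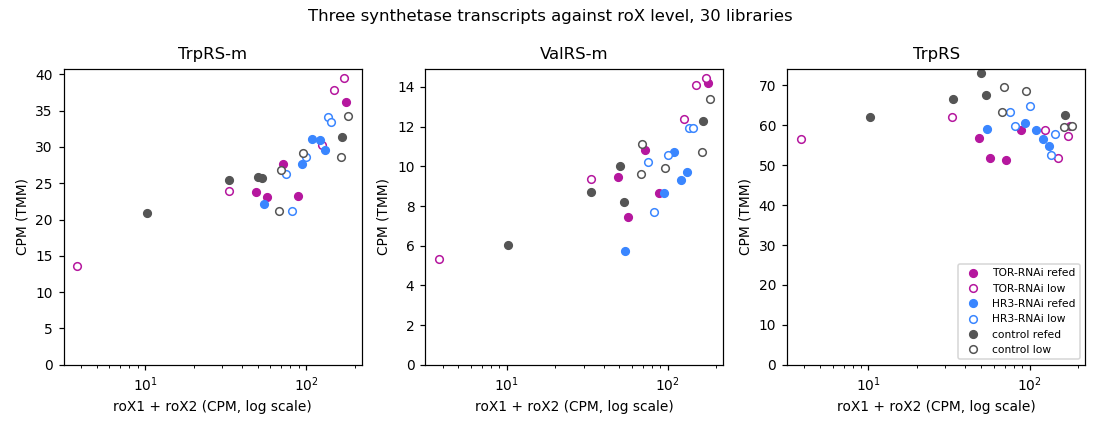
Levels of *TrpRS-m*, *ValRS-m* and *TrpRS* in CPM (TMM-scaled) in each of the 30 libraries against the summed *roX1* and *roX2* level on a log axis, colored by genotype with filled points for refed animals. *TrpRS-m* and *ValRS-m* are lowest in the library with 3.79 CPM of *roX*, whereas *TrpRS* has no called slope.

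Genes related to the synthetases but outside the symbol rule were described from a list of 9, of which 8 were tested. In *TOR-RNAi* animals, 6 of the 8 were lower and none higher, with a median of -0.25, against 12.2% of all genes. They were the phenylalanine enzyme's subunits *alpha-PheRS* (-0.25, edgeR adjusted p = 0.00122) and *beta-PheRS* (-0.26, edgeR adjusted p = 0.00248), *AIMP1* (-0.28), whose mammalian counterpart belongs to the scaffold of the multisynthetase complex, *Slimp* (-0.29), which encodes a synthetase-like mitochondrial protein of insects, *AIMP3* and *GatA*. *beta-PheRS* had 48.5 to 62.1 CPM in refed *TOR-RNAi* animals, against 66.4 to 79.2 CPM in refed controls, without overlap. On low cholesterol it had 54.9 to 70.9 CPM in *TOR-RNAi* animals and 57.3 to 79.5 CPM in controls, which overlapped. Separated by diet, 6 of the 8 relatives were lower in refed *TOR-RNAi* animals, where 9.79% of all genes were lower. On low cholesterol 0 were called by edgeR's quasi-likelihood test, where 1.84% of all genes were lower. Without adjustment, 0 of the 8 and 1832 of 12178 genes had a p under 0.05 on low cholesterol. In *HR3-RNAi* animals none of the 8 was called by edgeR's quasi-likelihood test, where 7.53% of all genes were called in either direction. Without adjustment, 3 of the 8 and 2469 of 12178 genes had a p under 0.05.

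Most of a list of 15 genes of the amino acid response and of TOR output were not called. In *TOR-RNAi* animals 3 were lower and 1 higher, with a median log2 fold change of 0.00, where 12.2% of all genes were lower and 8.72% higher. In *HR3-RNAi* animals 2 were lower and 1 higher, with a median of 0.02, where 4.23% of all genes were lower and 3.3% higher. In *TOR-RNAi* animals, *CG11899* (log2 fold change of -0.96, edgeR adjusted p = 1.13e-05) and *CG6287* (-0.43), relatives of enzymes of serine synthesis, and *Nmdmc* (-0.38), a mitochondrial folate enzyme, were lower, and *REPTOR-BP* (0.51), which encodes a partner of the TOR-repressed factor REPTOR, was higher. *CG11899* was at 10.2 to 18.3 CPM in refed *TOR-RNAi* animals, against 20.03 to 31.3 CPM in refed controls. On low cholesterol it was at 7.51 to 12.2 CPM in *TOR-RNAi* animals and 13.9 to 24.7 CPM in controls, again without overlap. In *HR3-RNAi* animals the transcription factor gene *crc*, the fly ATF4, was higher (0.15, edgeR adjusted p = 0.0332), and *CG11899* (-0.57) and *CG6287* (-0.72) were lower.

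Markers of tissues were compared beside these results. The summed muscle markers ran from 11204 to 22777 CPM in refed *TOR-RNAi* animals and from 14641 to 21890 CPM in refed controls, and none of the 4 was called. Of the 6 fat body markers only *Fbp1* was called higher in *TOR-RNAi* animals (log2 fold change of 5.55), and of the 6 salivary glue genes *Sgs1* (4.98) and *Sgs3* (6.23). The glue sum ran from 0.288 to 828 CPM in refed *TOR-RNAi* animals and from 1.16 to 659 CPM in refed controls. Of the 4 midgut genes, *betaTry* (0.38) was higher and *alphaTry* (-0.49) lower in *TOR-RNAi* animals. In *HR3-RNAi* animals both *betaTry* (-1.27, edgeR adjusted p = 7.63e-08) and *alphaTry* (-0.50, edgeR adjusted p = 0.026) were lower across both diets, and the median of the 4 midgut genes was -0.29. Of the glue genes, *Sgs1* was higher in *HR3-RNAi* animals on low cholesterol (edgeR adjusted p = 0.0149), where the glue sum ran from 0.106 to 2119 CPM in *HR3-RNAi* animals and from 0.546 to 16.7 CPM in controls. No fat body, muscle or testis marker was called by edgeR in *HR3-RNAi* animals across both diets, and 1, *Fbp1*, had an unadjusted p under 0.05 (edgeR adjusted p = 0.058). Of all 12178 genes tested, 2469 had an unadjusted p under 0.05 in that comparison. The part of these tissues in the synthetase differences was not tested.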

How the data were processed

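The deposited tables hold raw read counts per gene for 30 libraries and, separately, FPKM values (fragments scaled to gene length and library size) made by the authors. The submitters' processing notes name CASAVA, HISAT2, StringTie, featureCounts, DESeq2 and edgeR, without roles. The genome build and strand setting are not given in the sources used here. Libraries were grouped by the sample labels. Loci without a gene annotation made up 155 of 17713 features. Members were matched by symbol and FBgn identifier, and positions come from the BDGP6 annotation. The members and the gene lists were chosen with earlier results of these data known.

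Counts were analysed in R 4.3.3 with edgeR 4.0.16 (filterByExpr, TMM, quasi-likelihood test, Benjamini-Hochberg adjustment over all genes tested, threshold 0.05). Diets were compared in the 10 libraries of each genotype, and genotypes in 1 fit of all 30 libraries and 6 groups. Functions were tested on simulated counts. Alternatives were DESeq2 1.42.0 size factors, DESeq2's Wald test, no filter, *roX* as a covariate, the replicate number as a block, another set of libraries in the fit and leaving out each library. Intervals are 95% intervals of the fit. Genes named with values per library were the called members with the largest changes, at most 4 in each direction, or the 2 with the smallest p where fewer than 2 were called, and pairs in which one partner was called. Replicates are separate pools by label, and p-values measure only the spread between them. No 2 replicates agreed within sampling noise (chi-square per degree of freedom of at least 11.5). Members had 73 to 6191 counts per library. Their median coefficient of variation within groups was 6.86% for cytosolic and 11.3% for mitochondrial members. Gene symbols of context lists named with values were the 4 with the smallest p. No sequencing batch is named in the labels.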

Additional observations from a re-analysis of the deposited data

Results flagged for a closer look

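Among 78 sets of 5 libraries (the named members and the summed level of each class, in each group), 5 held a library far from the other 4, by Dixon's criterion, which chance meets in about 1 of 20 sets. In low-cholesterol *HR3-RNAi* animals, *GluRS-m* had 3.56 CPM in 1 library, against 4.77 to 5.25 CPM in the others. In the same group, *SerRS* had 152.7 CPM in 1 library, against 158.9 to 159.3 CPM in the others. *MetRS* had 72.2 CPM in 1 refed *TOR-RNAi* library, against 57.3 to 61.0 CPM. The summed mitochondrial members were at 216.5 CPM in 1 low-cholesterol *HR3-RNAi* library, against 237.5 to 245.2 CPM, and at 244.6 CPM in 1 refed *TOR-RNAi* library, against 194.1 to 204.1 CPM. That last library, replicate 4, had the highest *roX* level of its group, at 177 CPM. Without it, 23 members were called lower in refed *TOR-RNAi* animals, in place of 18. Calls over all genes were not counted in that fit, so the rise cannot be set against them. The part of *roX* in these values was not tested.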

How the results depend on the processing

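Of 72 counts of members under alternatives other than left-out libraries, 62 stayed within 1.5 times the reported count. These include comparisons with a reported count of 0, where a count that stayed at 0 was taken as unchanged. For *TOR-RNAi* against controls on low cholesterol, where 2 were reported, DESeq2's size factors gave 1, no filter on low counts gave 1 and the 10 libraries of these groups alone gave 0. For *HR3-RNAi* against controls across both diets, where 5 were reported, DESeq2's Wald test gave 9 and the 20 libraries of these genotypes alone gave 9. After refeeding, where 2 were reported, DESeq2's size factors gave 5, DESeq2's Wald test 7, the 10 libraries alone 11, and the replicate block 1, in which *IleRS* was lost. For the interaction of *TOR* knockdown with diet, DESeq2's Wald test gave 1 in place of 0. Calls over all genes moved too, and are given here in the same order. For *TOR-RNAi* on low cholesterol they numbered 500, 400 and 219, in place of 452. For *HR3-RNAi* across both diets they numbered 1223 and 1356, in place of 917. For *HR3-RNAi* after refeeding they numbered 586, 793, 1263 and 503, in place of 484. For the interaction of *TOR* knockdown with diet the number was 114, in place of 0. The cause of these differences was not tested. Leaving out 1 library gave 0 to 2 calls for *TOR-RNAi* against controls on low cholesterol, 3 to 8 for *HR3-RNAi* against controls across both diets and 1 to 5 after refeeding. Calls over all genes were not counted in the fits with a library left out. Replicate numbers showed no consistent pairing of the samples. Same-numbered libraries of 2 groups had lowest correlations of -0.69 to 0.0004 and mean correlations of -0.22 to 0.21. The mean exceeded that of other numbers between the diets in *HR3-RNAi* animals (0.21 against -0.05). It also did so between refed *TOR-RNAi* animals and refed controls (0.16 against -0.04), and was lower in the other pairs of groups compared. With the replicate number as a block, 20 members were called in *TOR-RNAi* and 5 in *HR3-RNAi* animals across both diets. *HisRS* took the place of *ValRS* among these 5. Calls over all genes were then 2481 and 878, in place of 2548 and 917. Class medians moved by less than the spread between replicates with DESeq2's size factors and with *roX* in the fit. A median near 0 can shift by much of its size within that bound. The refeeding medians of controls did so with *roX* in the fit. Requiring a mean of at least 100 counts kept all 31 members, so it could not change the medians. No named member reversed its direction. The lowest count of any member in a library was 73, and mitochondrial members varied more between replicates (median coefficient of variation 11.3%) than cytosolic ones (6.86%).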
